A study of Homo sapiens with 5 samples.

Results

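The clustered protocadherin genes are 53 protein-coding genes that lie in 3 neighbouring clusters on human chromosome 5, and they are described here by where mapped sites of DNA replication initiation fall on them. Members were taken from the GENCODE annotation of hg38 by symbol: PCDHA1 to PCDHA13 with PCDHAC1 and PCDHAC2 (15 genes, the alpha cluster), PCDHB1 to PCDHB16 (16 genes, the beta cluster), and the PCDHGA, PCDHGB and PCDHGC genes (22 genes, the gamma cluster). They are 53 of 20033 protein-coding genes, and all lie on the plus strand. For each gene, an interval was counted where it overlapped the gene's own first exon or lay within 1 kb of its 5' end, by at least 1 base; this piece of DNA is called the gene's stretch.

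The cells were EJ30, a human bladder carcinoma line, and the sources used here give no genetic change in any group. Mimosine, a drug that arrests cells before S phase, was given to the cells for both ini-seq 2 groups, and the methods name no such treatment for SNS-seq. In ini-seq 2, nuclei isolated from the arrested cells, in late G1 phase, started DNA synthesis in a cytosolic extract of HeLa cells with bromo-dUTP in place of the thymidine nucleotide, for 3 h or for 15 min, and heavy-light (replicated) and light-light (unreplicated) DNA were sequenced. In SNS-seq, short nascent strands from EJ30 cells were recovered in a size fraction of 0.5 to 2 kb and another of 2 to 4 kb, and peaks were called against total genomic DNA. The data were 4 interval lists, 1 for each condition, so no list had a replicate to give an error, no test was made, and the depth behind any interval is unknown; the lists held 23905 (3 h), 10181 (15 min), 147657 (0.5 to 2 kb) and 184966 (2 to 4 kb) intervals.

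Protocadherins are cell adhesion proteins with cadherin repeats outside the cell. In the alpha and gamma clusters, each gene starts with its own long first exon, the variable exon, which codes for the outer part, the membrane span and the start of the inner part of the protein, and which is spliced to constant exons shared by the whole cluster. The beta genes consist of a single exon and have no constant exons. In neurons, each cell transcribes a few alternate isoforms chosen at random from the promoters, through CTCF, cohesin and DNA methylation, while the C-type isoforms (PCDHAC1, PCDHAC2, PCDHGC3, PCDHGC4 and PCDHGC5) are more evenly used. Such a set of near copies, each with its own promoter and a long coding first exon, lets the position of initiation sites be compared over many similar genes.

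The promoters of the alternate genes share a short box that holds the letters CGCT. The 90 bases before the 5' end are shown for the first members of each type that held these 4 letters there and overlapped no annotated untranslated region. CGCT is in capitals, whether or not it is part of the box (hg38, plus strand, 5' to 3').
PCDHA2, chr5:140794762-140794851: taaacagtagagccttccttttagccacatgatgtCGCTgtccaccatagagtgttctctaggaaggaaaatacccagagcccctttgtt
PCDHA8, chr5:140841097-140841186: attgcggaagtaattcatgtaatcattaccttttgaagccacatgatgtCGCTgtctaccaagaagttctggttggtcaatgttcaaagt
PCDHB1, chr5:141051284-141051373: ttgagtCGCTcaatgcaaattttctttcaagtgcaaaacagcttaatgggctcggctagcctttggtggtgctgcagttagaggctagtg
PCDHB3, chr5:141100383-141100472: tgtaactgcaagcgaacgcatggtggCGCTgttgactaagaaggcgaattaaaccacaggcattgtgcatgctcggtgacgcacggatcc
PCDHGA2, chr5:141338670-141338759: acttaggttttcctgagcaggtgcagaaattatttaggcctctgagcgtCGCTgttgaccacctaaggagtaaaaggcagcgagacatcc
PCDHGB1, chr5:141350009-141350098: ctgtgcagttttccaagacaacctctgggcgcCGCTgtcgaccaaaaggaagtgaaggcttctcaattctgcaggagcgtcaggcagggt
PCDHAC1, chr5:140926209-140926298: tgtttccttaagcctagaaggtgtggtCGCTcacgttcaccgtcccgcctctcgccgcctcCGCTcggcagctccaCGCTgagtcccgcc
In the 100 bases before the 5' end, CGCT on the plus strand was present in 14 of 15 alpha, 14 of 16 beta and 20 of 22 gamma genes. PCDHA9, PCDHB6, PCDHB8, PCDHGA12 and PCDHGC5 did not have it there. These letters alone also occur at many other genes. In the same 100 bases, 7236 of the 20033 protein-coding genes had CGCT on the gene's strand. In the 250 bases before the 5' end, CGCT on either strand occurred in 50 of the 53 members and in 77.2% of all protein-coding genes. The longer form GTCGCT was found there in 13 of the 15 alpha genes (among them PCDHA2 and PCDHA8), 2 beta genes and 6 gamma genes, against 7.99% of all protein-coding genes. GGCGCT was found in no alpha gene, 13 beta genes (among them PCDHB3) and 8 gamma genes, against 23.8% of all protein-coding genes. Both longer forms contain CGCT, both strands were searched, and they were chosen after these promoters had been read. Of the 48 genes with the letters CGCT in the 100 bases, these letters lay in a 3-hour origin at 1 gene (PCDHAC2), in a 15-minute origin at none, in a 0.5 to 2 kb peak at 4 and in a 2 to 4 kb peak at 13. Of the 7236 protein-coding genes with CGCT there on the gene's strand, the shares were 64.4%, 44.4%, 65.9% and 81.3%.

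Ini-seq 2 origins were nearly absent from the clustered protocadherin genes. After 3 h, 2 of the 53 genes carried an origin, which is 3.77% (exact Clopper-Pearson 95% interval 0.460% to 13%), where 58.6% of all protein-coding genes did by the same rule. After 15 min, 0 of 53 did (upper limit 6.72%), where 41.5% of all protein-coding genes did. The first exons of these genes are long, from 2470 to 7973 bp, with a median of 2601 bp. Among the 456 protein-coding genes whose first exon is at least 2 kb long, the members included, 46.9% had a 3-hour origin and 37.7% a 15-minute origin, so the small counts at the members were well below both backgrounds. These intervals cover counting error only, and genes of a single locus share their surroundings, so they are not 53 independent observations.

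**Figure D1:**
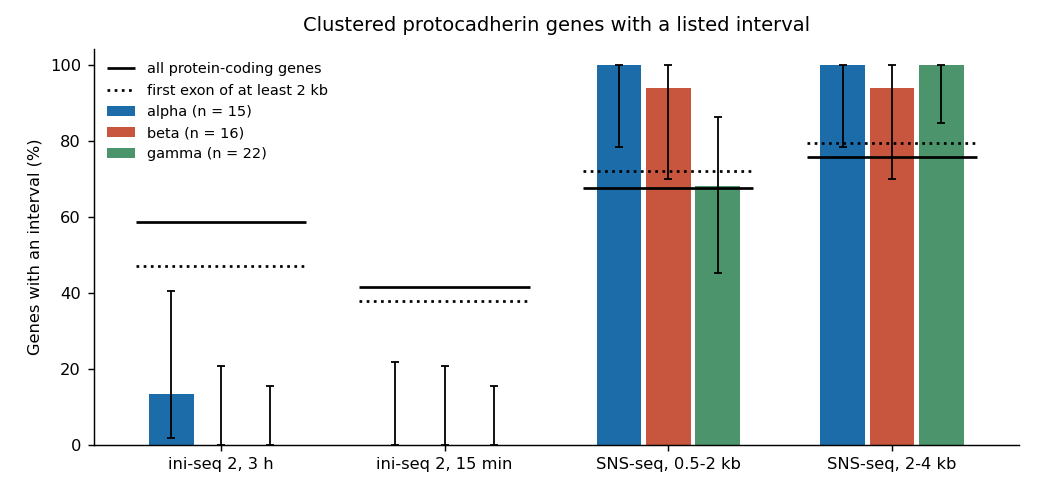
Percentage of genes in the alpha (n = 15), beta (n = 16) and gamma (n = 22) clusters with at least 1 interval of each list; error bars are exact Clopper-Pearson 95% intervals, solid lines give the share of all 20033 protein-coding genes and dotted lines that of the 456 genes with a first exon of at least 2 kb. Ini-seq 2 bars are at 0 apart from the alpha cluster at 3 h, while SNS-seq bars lie at 68.2% or above.

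Both genes with a 3-hour origin were the C-type genes of the alpha cluster. The origin at PCDHAC1 lay at chr5:140926301-140927000 (hg38), 700 bp long, beginning just inside the first exon and covering its untranslated part and the start of the coding sequence. Its efficiency, which is the heavy-light share of the normalised heavy-light and light-light reads, was 0.827, in the lowest of the 3 equal-sized efficiency classes (0.842 or below). The origin at PCDHAC2 lay at chr5:140966301-140966900, 600 bp long, across the 5' end, the untranslated part and the start of the coding sequence. Its efficiency was 0.913, in the highest class (above 0.907). Over all 3-hour origins the efficiency averaged 0.878 ± 0.0529 (SD over 23905 origins), so that the PCDHAC1 origin lay below this average and the PCDHAC2 origin above it, each by less than 1 SD.

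Their base composition is shown by the coding bases that lie inside these 2 origins, from the start codon to the end of the origin, with CpG dinucleotides in capitals (hg38, plus strand).
PCDHAC1, chr5:140926893-140927000: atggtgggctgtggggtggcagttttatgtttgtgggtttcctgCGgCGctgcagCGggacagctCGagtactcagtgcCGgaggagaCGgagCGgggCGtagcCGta
PCDHAC2, chr5:140966767-140966900: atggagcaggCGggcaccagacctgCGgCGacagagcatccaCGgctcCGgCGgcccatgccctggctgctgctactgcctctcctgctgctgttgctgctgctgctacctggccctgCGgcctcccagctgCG
The origins were 67.9% (PCDHAC1) and 70.3% (PCDHAC2) GC over their whole length, and the PCDHAC2 origin held 1 G-quadruplex motif (4 stretches of 3 or more consecutive G, separated by loops of 1 to 7 bases, on either strand), the PCDHAC1 origin none. Both genes also had SNS-seq peaks over the same place. At PCDHAC1 a 0.5 to 2 kb peak of 1417 bp and a 2 to 4 kb peak of 3159 bp covered the 5' end, and at PCDHAC2 the corresponding peaks were 2089 and 2772 bp long.

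None of the 13 alternate alpha genes, the 16 beta genes or the 22 gamma genes had a 3-hour origin, with upper limits of the share of 24.7%, 20.6% and 15.4%. The nearest gamma gene to an origin was the C-type gene PCDHGC5. An origin of efficiency 0.821 at chr5:141491901-141492700 began 201 bp past the end of its first exon and 2820 bp past its 5' end, in the intron of the canonical transcript and in an untranslated exon of another transcript of the gene. A further origin of efficiency 0.819 lay at chr5:141508801-141509300, in the intron before the last constant exon of the gamma genes. Neither overlapped an exon of the canonical gamma transcripts.

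Over the whole locus, chr5:140786136-141512977 (727 kb), 5 origins were listed at 3 h and 0 at 15 min. This is 0.688 origins per 100 kb at 3 h, close to the 0.814 per 100 kb of the genome, though it rests on 5 origins. These covered 0.413% of the locus, where 3-hour origins covered 0.799% of the genome. The member stretches held 2 of the 5. The fifth 3-hour origin (efficiency 0.808) lay between the beta and gamma clusters at the start of TAF7, which codes for a subunit of the general transcription factor TFIID. The 500 kb before and after the locus held 8 and 18 origins at 3 h (1.6 and 3.6 per 100 kb), and 3 and 6 at 15 min. The nearest 15-minute origin on the gamma side lay at the start of DIAPH1, which codes for a formin that nucleates actin filaments, and the 3-hour origin there had an efficiency of 0.949. On the other side, the origin at the shared start of HARS1 and HARS2, the genes for the histidyl-tRNA synthetases, was listed at 3 h (efficiency 0.827) and not at 15 min.

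Between these origins lay long pieces without one. All 16 beta genes lay in a single piece of 353.7 kb between the PCDHAC2 and TAF7 origins, and their stretches were 71236 to 167314 bp from the nearest 3-hour origin. The 13 alternate alpha genes lay in a piece of 234.5 kb and all 22 gamma genes in one of 170.9 kb. The median distance between neighbouring 3-hour origins in the genome was 22.7 kb, and 7.19%, 11.0% and 14.6% of the 23881 distances were at least as long as these 3 pieces. Such distances are therefore uncommon among neighbouring origins, without being at the far end of the range.

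**Figure D2:**
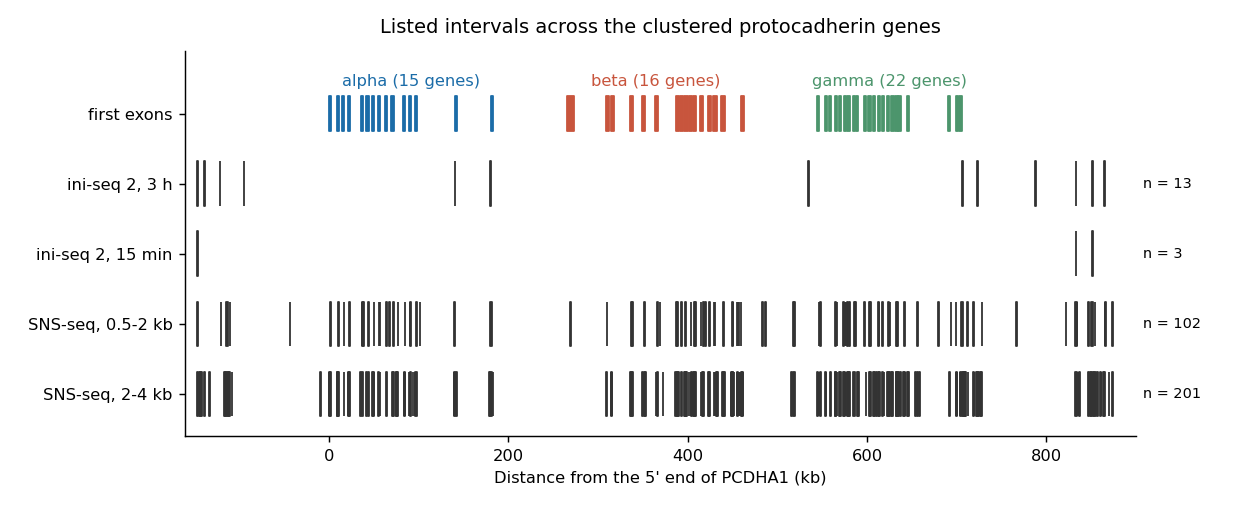
Intervals of the 4 lists and the first exons of the alpha, beta and gamma genes along the locus, in kb from the 5' end of PCDHA1; each bar is 1 interval, drawn at least 0.7 kb wide, and n counts the intervals within 150 kb of the locus (13, 3, 102 and 201). SNS-seq peaks follow the first exons, whereas ini-seq 2 origins leave the beta genes and all alternate alpha and gamma genes without one.

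SNS-seq peaks were present at most of the same genes. In the 0.5 to 2 kb fraction, 45 of 53 genes (84.9%, exact Clopper-Pearson 95% interval 72.4% to 93.3%) carried a peak, where 67.4% of all protein-coding genes and 72.1% of those with a first exon of at least 2 kb did. In the 2 to 4 kb fraction, 52 of 53 genes (98.1%, 89.9% to 99.95%) did, where 75.8% and 79.4% of the backgrounds did. The interval of the small fraction included neither the first background nor, by a small margin, the second, but the order turned with the rule. Within 1 kb of the 5' end alone, 16 of 53 members had a small-fraction peak, where 67.2% of all protein-coding genes did. With peaks of at least 500 bp alone, 24 of 53 members had one, only 1 of them a beta gene, where 53.7% of all protein-coding genes did. By cluster, the counts in the small fraction were 15 of 15 alpha, 15 of 16 beta and 15 of 22 gamma genes, and in the large fraction 15 of 15, 15 of 16 and 22 of 22. The genes without a peak of the small fraction were PCDHB3, PCDHGA2, PCDHGA3, PCDHGA4, PCDHGA8, PCDHGA10, PCDHGA12 and PCDHGC3, and the single gene without a peak of the large fraction was PCDHB1. The gamma share in the small fraction (68.2%, 45.1% to 86.1%) was close to the background of all genes.

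Most SNS-seq peaks of the locus lay at the first exons. The locus held 85 peaks of the small fraction and 171 of the large one, 11.7 and 23.5 per 100 kb, against 5.02 and 6.29 per 100 kb over the genome. Of these, 62 and 130 touched the stretches of the members, which make up 29.3% of the length of the locus. Of the 62 small-fraction peaks 59 (95.2%) overlapped a large-fraction peak, and of the 130 large-fraction peaks 54 (41.5%) overlapped a small-fraction peak. Most large-fraction peaks at members thus lay where the small fraction had none. These overlaps were not computed for other genes, and the large-fraction list is the longer one, so they are not shown to be particular to the members. The small-fraction peaks at members had a median of 424 bp, shorter than the 824 bp of those at all protein-coding genes. The median of the whole small-fraction list was 283 bp. In the large fraction the medians were 419.5 bp at members, 1472 bp at all protein-coding genes and 339 bp over the whole list. Of the constant exons, none of the 3 in the alpha cluster carried an interval of any list, and in the gamma cluster all 3 carried peaks of the large fraction alone, 1 at each of the first 2 of them and 2 at the last.

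The base at the 5' end was seldom inside a peak. A small-fraction peak covered the 5' end itself in 5 of the 53 genes (PCDHAC1, PCDHAC2, PCDHGA7, PCDHGB2 and PCDHGC4), where it did so in 52.7% of all protein-coding genes. A large-fraction peak covered it in 15 of 53, where it did so in 67.2% of all protein-coding genes. The small-fraction share at all protein-coding genes was highest in the 250 bases from the 5' end, at 59.4%, and lower on either side. In the alpha cluster it was 13.3% in these 250 bases and 86.7% in the 250 bases that began 1750 bases further on. Other genes with a first exon of at least 2 kb (n = 403) showed 60.8% at the start and 34.0% at that distance, a smaller share at that distance than in the alpha genes. In the large fraction, peaks were present in these first 250 bases in 73.3% of the alpha, 56.3% of the beta and 54.5% of the gamma genes, beside 71.3% of all protein-coding genes and 72.0% of the other genes with long first exons. In these first 250 bases, the low share of the alpha genes was therefore seen in the small fraction and not in the large one. At the 5' end itself and just before it, the large fraction was low as well. A large-fraction peak covered the 5' end in 6 of the 15 alpha genes. In the 250 bases before it, 40% of the alpha genes had such a peak, beside 69.7% of all protein-coding genes.

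In the alternate alpha genes the peak sat at nearly the same place in every gene. Counting from 1 at the first base of the start codon, bases 1702 to 1934 were inside a small-fraction peak in 13 of 13 genes, and bases 1616 to 2334 inside a large-fraction peak in 13 of 13. The small-fraction peak over this place began at base 1610 (median, range 828 to 1702), ended at base 2334 (1934 to 2569) and was 656 bp long (346 to 1702). In PCDHA1 it lay at chr5:140787879-140788224 and was the shortest. In PCDHA13 it lay at chr5:140883096-140884797 and was the longest. PCDHA3, at chr5:140802876-140803531, had the peak of median length and median end. The coding part of the variable exon ends between 2352 and 2394 bases in these genes, so that the peak lay toward its end, and in 5 genes it ran past that end. A second, separate small-fraction peak was present in PCDHA5, PCDHA8 and PCDHA12 and lay nearer the start codon in each.

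The 90 coding bases around the centre of the shared place, bases 1773 to 1862 from the start codon, are shown for 3 alternate alpha genes from along the cluster and for 4 genes of other types, with CpG dinucleotides in capitals (hg38, plus strand). Bases are aligned by distance from the start codon and not by homology.
PCDHA1, chr5:140788063-140788152: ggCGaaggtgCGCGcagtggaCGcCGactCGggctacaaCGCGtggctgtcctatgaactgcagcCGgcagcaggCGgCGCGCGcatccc
PCDHA4, chr5:140808960-140809049: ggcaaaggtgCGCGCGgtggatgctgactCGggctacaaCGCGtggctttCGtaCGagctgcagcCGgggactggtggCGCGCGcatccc
PCDHA13, chr5:140884041-140884130: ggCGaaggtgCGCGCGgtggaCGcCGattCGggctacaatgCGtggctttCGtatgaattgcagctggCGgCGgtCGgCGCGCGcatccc
PCDHB4, chr5:141123771-141123860: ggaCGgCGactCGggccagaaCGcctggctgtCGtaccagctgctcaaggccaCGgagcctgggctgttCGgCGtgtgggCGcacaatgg
PCDHGA2, chr5:141340744-141340833: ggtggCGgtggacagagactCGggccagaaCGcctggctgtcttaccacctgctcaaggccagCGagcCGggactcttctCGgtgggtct
PCDHGB2, chr5:141361908-141361997: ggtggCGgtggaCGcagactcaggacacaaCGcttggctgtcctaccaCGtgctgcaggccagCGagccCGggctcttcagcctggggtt
PCDHAC2, chr5:140968539-140968628: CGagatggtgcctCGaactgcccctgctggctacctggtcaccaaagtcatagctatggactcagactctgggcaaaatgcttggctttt
The 3 alternate alpha genes held 13, 12 and 15 CpG dinucleotides in these 90 bases and were 67.8% to 71.1% GC. PCDHA4 and PCDHA13 matched PCDHA1 at 85.6% and 88.9% of the bases, so the repeated peak lay over near copies of a CpG-dense coding sequence. PCDHB4 held 9, PCDHGA2 and PCDHGB2 6 each, and the C-type gene PCDHAC2 held 2 at a GC content of 53.3%. At PCDHAC1 and PCDHAC2 the shared place carried no small-fraction peak: their peaks covered the 5' end, with ends at positions -484 and 932 from it in PCDHAC1 and -560 and 1528 in PCDHAC2.

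Gene by gene, the share of the first exon covered by small-fraction peaks was 13.6% to 61.7% in the alternate alpha genes (median 29.1%), lowest in PCDHA1 and highest in PCDHA13. It was 0% to 30.8% in the beta genes (median 8.60%), where PCDHB7 was the highest and carried 3 peaks. In the large fraction the medians were 68.4% in the alternate alpha genes and 28.7% in the beta genes. PCDHA5 was covered from end to end by a single large-fraction peak of 2807 bp, and PCDHB1 had no large-fraction peak. PCDHB1 has the longest first exon of the beta genes, and its only small-fraction peak, of 198 bp, began 3608 bp past the 5' end.

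The gamma A and gamma B genes, which alternate along the gamma cluster, did not overlap in the small fraction. Peaks of the small fraction were present at 6 of 12 PCDHGA genes and at 7 of 7 PCDHGB genes. They were present at 67.4% of all protein-coding genes and 72.1% of those with a first exon of at least 2 kb. The share of the first exon covered by small-fraction peaks was 0% to 19.96% in the PCDHGA genes (median 0%) and 28.6% to 55.5% in the PCDHGB genes (median 44.5%). This share was not computed for genes outside the clusters. The highest PCDHGA gene was PCDHGA5 and the lowest PCDHGB gene was PCDHGB5. The large fraction showed an overlap of the groups: 6.89% to 78.1% in PCDHGA (median 28.8%) and 64.4% to 91.3% in PCDHGB (median 66.7%), with PCDHGA4 and PCDHGA11 inside the range of PCDHGB. At 1 of the 6 PCDHGA genes counted with a small-fraction peak, PCDHGA11, the peak lay in the first exon of the preceding gene PCDHGB7, which it also counted for, and at PCDHGA6 the peak lay wholly before the 5' end. In all 7 PCDHGB genes a small-fraction peak covered bases 1146 to 1517 from the start codon, and no base of the coding exon was covered in more than 3 of the 12 PCDHGA genes. The GC content of the first exon overlapped between the groups (51.7% to 56.7% in PCDHGA and 53.2% to 54.3% in PCDHGB). Between 1500 and 2000 bases past the start codon, the median GC content was 63.4% in PCDHGA and 67.6% in PCDHGB, and a median of 71.9% and 88.4% of the 50-base words were found once in hg38. The part of these differences in the coverage was not tested. The comparison of these groups was chosen after the values were seen.

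The 3 gamma C-type genes differed among themselves. PCDHGC3 had no small-fraction peak and 1 large-fraction peak. PCDHGC4 had a small-fraction peak of 524 bp across its 5' end. PCDHGC5 had one of 2302 bp that began 1693 bases past the 5' end and ran beyond the first exon over the ini-seq 2 origin described above, and a large-fraction peak of 2971 bp that covered the same origin.

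**Figure D3:**
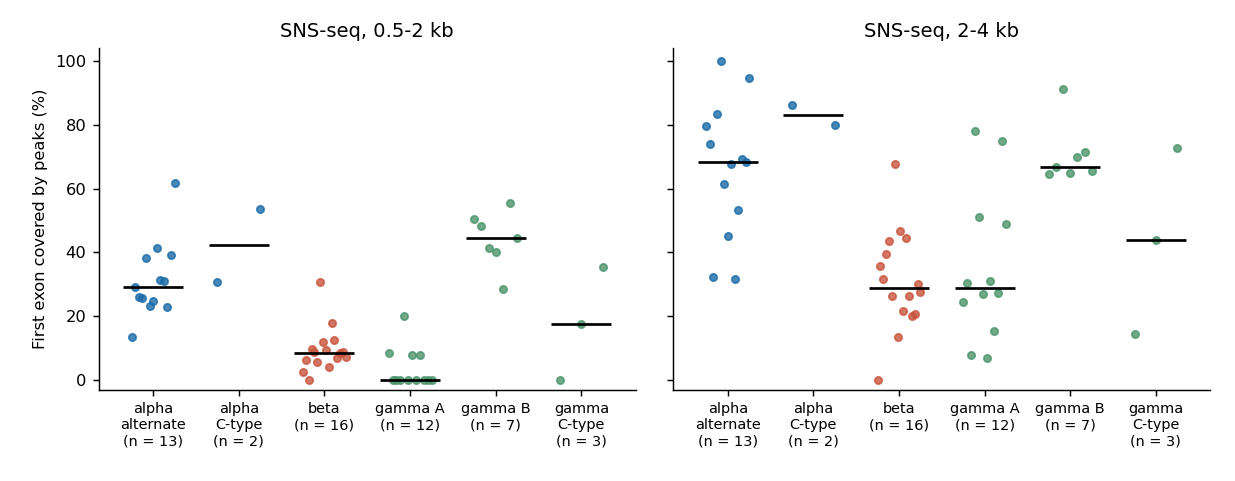
Percentage of each gene's first exon covered by peaks of the 0.5 to 2 kb (left) and 2 to 4 kb (right) SNS-seq fractions; each point is 1 gene and black lines are medians. In the small fraction the PCDHGB genes (28.6% to 55.5%) lie wholly above the PCDHGA genes (0% to 19.96%).

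The beta genes showed peaks on either side of a gap, and the gamma A and gamma B genes a dip at a similar place. Small-fraction peaks were present between 1000 and 1500 bases past the start codon in 9 of 16 beta genes and between 2000 and 2500 bases in 8 of 16, but between 1500 and 2000 bases in 1 of 16, where the peak of PCDHB7 began at base 1999. The large fraction was present in 14, 11 and 5 of 16. Shares by distance from the start codon were not computed for other genes. In 13 of 13 alternate alpha genes and 7 of 7 PCDHGB genes, peaks of both fractions touched the middle part, without always covering it. In the 100 bases from base 1700, each fraction had a peak in 3 of 7 PCDHGB genes. From base 1500 both had one in 7 of 7, and from base 2000 the small fraction in 6 and the large in 7. Among the PCDHGA genes, a large-fraction peak was present in 10 of 12 from base 1400, 3 of 12 from base 1700 and 7 of 12 from base 2000. The gap was not poor in GC: the middle part was 69.4% GC (median, 46.2% to 71%) in the beta genes, beside 67.4% in the alternate alpha genes.

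The middle part of the beta genes was the part most repeated elsewhere in the genome. According to the methods, reads of 50 bases were used and those that did not align to a single position were removed. In the beta genes a median of 38.8% of the 50-base words between 1500 and 2000 bases occurred once in hg38 on either strand, with 78.9% before it and 86.4% after it. In the 100 bases from base 1700 the median was 0% and the mean 18.8%, beside means of 61.0% in the PCDHGA and 62.9% in the PCDHGB genes. In the alternate alpha genes the middle part had a median of 83.4%. The shared place of the small-fraction peak had 96.5% to 100% (means over genes of the bins from 1700 to 1900). The wider shared place of the large fraction also took in the bins from 1600 and 2000, with means of 67.4% and 93.6%. Among the 15 beta genes with under 60% in the middle part, 1 had a small-fraction peak there and 5 a large-fraction peak, and PCDHB1, at 100% and 46.2% GC, had neither. Of the PCDHGB genes, PCDHGB1 and PCDHGB2 had under 60%, and their peaks reached only the start of this part. The small- and large-fraction peaks ended at bases 1596 and 1606 in PCDHGB1 and at 1518 and 1595 in PCDHGB2. PCDHGA3, at 45.4%, had no peak of either fraction there. Over the whole stretch, the members ranged from 64.3% (PCDHB8) to 100%, with a median of 92.2%, where 1000 protein-coding genes taken at every 20th position along the genome had a median of 100%. In the alternate alpha genes the words were also less often found once just before the peak, at means of 56.9% and 67.4% in the bins from 1500 and 1600, and the peaks there began at a median of base 1610. The part of unique alignment in the gap and in the peak's start was not tested.

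**Figure D4:**
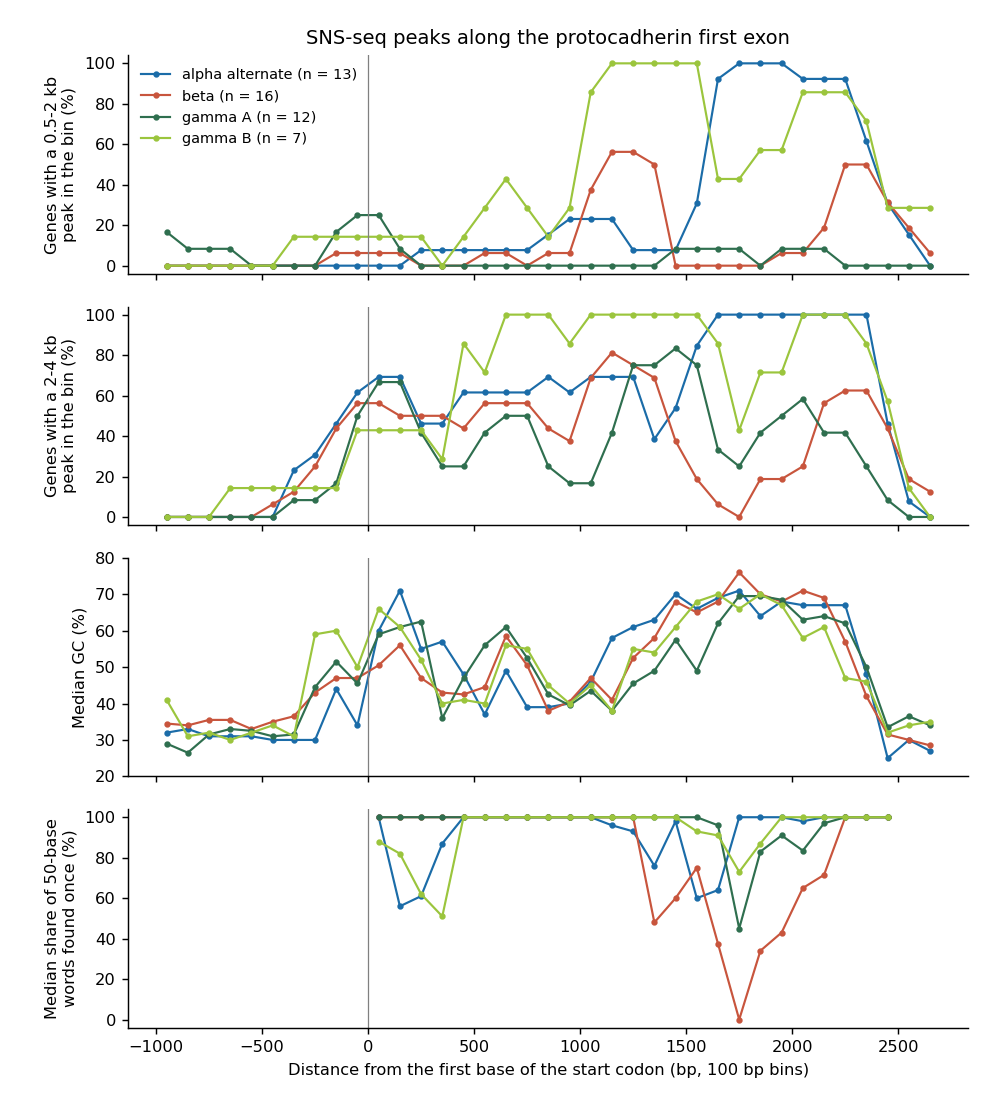
Percentage of genes with a peak of either SNS-seq fraction, median GC content and median percentage of 50-base words found once in hg38, in 100 bp bins from the start codon, for the alternate alpha (n = 13), beta (n = 16), gamma A (n = 12) and gamma B (n = 7) genes. The alternate alpha genes reach 100% in both fractions from bins 1700 to 1900, where the beta genes have few peaks, a GC content as high and few words found once.

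GC content went with 3-hour origins over all genes, and the clustered protocadherin genes were set against it in bands that were chosen after the values were seen. The stretches of the members were 40.0% to 54.9% GC (median 48.5%), below the median of 55.9% of all protein-coding genes. In the band of 45% to 50% GC, 20.1% of 2498 protein-coding genes had a 3-hour origin, and 0 of the 36 members in it did. In the band of 50% to 55%, 51.0% of 4087 genes had one, and 2 of the 10 members did, PCDHAC1 and PCDHAC2.

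By the richest 500 bp within each stretch, the members looked more like other genes. These windows were 56.6% to 72.4% GC (median 68.4%, beside 69.0% for all protein-coding genes). In the band of 65% to 70%, 69.1% of 3484 genes had a 3-hour origin and 0 of 29 members did, 13 of them alpha, 1 beta and 15 gamma genes. In the band of 70% to 75%, 89.6% of 4071 genes had one and 2 of 16 members did, the other 14 being beta genes. The window began before the start codon in PCDHAC1 and PCDHAC2, and 1249 to 1587 bases past it in the alternate alpha genes. In the beta genes, 21.0% to 100% of the 50-base words of the window were found once (median 40.3%), and in the alternate alpha genes 71.8% to 95.8% (median 83.3%).

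The place of the richest window was compared in other genes with long first exons. Of the members with a window of 65% to 75% GC, it began 1 kb or more past the 5' end in 43, and 0 of these had a 3-hour origin (upper limit of the exact 95% interval 8.22%). Of the other protein-coding genes with a first exon of at least 2 kb and such a window at such a distance, 10 of 22 had one (45.5%, 24.4% to 67.8%), and where the window began nearer the 5' end 71 of 125 did (56.8%). The 2 members of the latter kind were PCDHAC1 and PCDHAC2, and both had an origin. Small-fraction SNS-seq peaks were present in 37 of the 43 members and in 17 of the 22 other genes, which is 86.0% and 77.3%, and the shares lay closer together than for 3-hour origins. G-quadruplex motifs were present in the stretches of 3 of 15 alpha, 11 of 16 beta and 1 of 22 gamma genes. The beta stretches were also longer, with a median of 4846.5 bp, beside 3532 bp in alpha and 3598.5 bp in gamma genes. The share of all protein-coding genes with a motif was not computed. Whether GC content, its position, G-quadruplex motifs, transcription or chromatin has a part in the counts of origins and peaks was not tested.

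**Figure D5:**
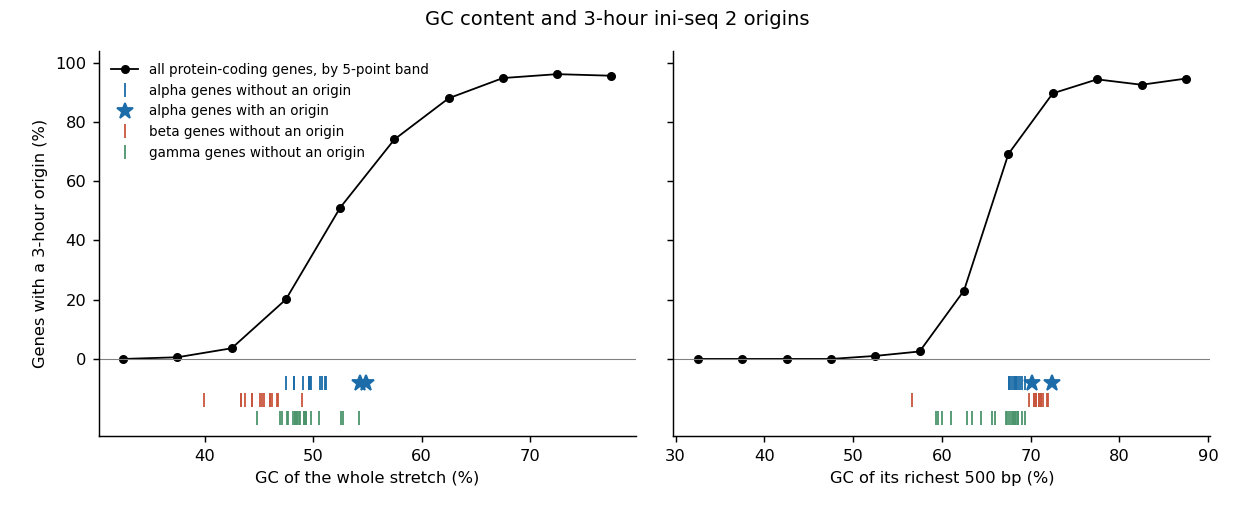
Percentage of all protein-coding genes with a 3-hour ini-seq 2 origin by 5-point bands of GC content (black, bands of at least 20 genes), for the whole stretch (left) and its richest 500 bp (right); ticks and stars below 0 mark the GC content of single alpha, beta and gamma genes without and with an origin. The 2 stars, PCDHAC1 and PCDHAC2, have the highest stretch GC of all members, and the ticks on the right reach 72.0%, where most other genes have an origin.

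Protocadherins outside the clusters are single genes on several chromosomes, many of them also with long coding first exons. Of 12 such genes (PCDH1, PCDH7, PCDH8, PCDH9, PCDH10, PCDH11X, PCDH12, PCDH15, PCDH17, PCDH18, PCDH19 and PCDH20), 4 had a 3-hour origin, 2 a 15-minute origin, 7 a small-fraction peak and 9 a large-fraction peak. The shares of all protein-coding genes were 58.6%, 41.5%, 67.4% and 75.8%. The 3-hour origins were at PCDH8 (efficiency 0.957), PCDH19 (0.933), PCDH1 (0.897) and PCDH7 (0.827), and those of PCDH8 and PCDH1 were also listed at 15 min. PCDH1 and PCDH12 lie on chromosome 5 like the clusters; PCDH12 had a large-fraction SNS-seq peak and no interval of the other lists. The stretches of these genes were 35.8% to 66.3% GC (median 57.4%), richer than those of the clustered genes, and the 4 with an origin were all at 59.6% or above.

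The genes for proteins that act on the promoters of the clustered protocadherin genes gave a different picture from the clusters themselves. Of 14 such genes, 12 had a 3-hour origin, 10 a 15-minute origin, 12 a small-fraction peak and 14 a large-fraction peak. Over all protein-coding genes these shares were 58.6%, 41.5%, 67.4% and 75.8%. CTCF, which codes for the DNA-binding protein that pairs these promoters with their enhancers, had an origin of efficiency 0.974, and the cohesin genes RAD21, SMC3, STAG1 and SMC1A had origins of 0.947, 0.941, 0.960 and 0.897. The DNA methyltransferase genes DNMT3A and DNMT3B had origins of 0.962 and 0.916. SETDB1, which codes for a histone H3 lysine methyltransferase, and the cohesin gene STAG2 had none in either ini-seq 2 list. The other genes, all with a 3-hour origin, were TET3, which oxidises methylated cytosine, SMCHD1, a chromatin protein of the SMC family, and NIPBL, MAU2 and WAPL, which load cohesin onto DNA or release it. SETDB1, RAD21 and STAG2 had stretches of 47.5%, 51.6% and 55.3% GC, and the others 57.2% to 79.1%, in bands of GC content where 74.1% to 96.1% of all protein-coding genes had a 3-hour origin.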

How the data were processed

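Per the labels and the methods, the authors used Bowtie2 and hg38, discarded reads with several alignments and PCR duplicates, and called SNS-seq peaks with MACS2 against total genomic DNA and ini-seq 2 origins with a caller of their own. The deposited 3-hour list was called on pooled biological duplicates; for the other lists pooling is not given in the sources used here. Its value column is the authors' efficiency, a fraction from 0.8 to 1, although its heading names a Z-score. The 15-minute values are a deposited score, centred on 0 with SD 1. The SNS-seq lists hold positions alone (a caller's counting from 0 was assumed for their starts). No reads, counts or depths were used here, and the input sample was not analysed here.

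Overlaps were counted with Python 3.11.15, pandas 2.3.3 and NumPy 2.4.6 on GENCODE 44, for the canonical transcript's first exon with 1 kb on either side of the 5' end. Shares have exact Clopper-Pearson 95% intervals (SciPy 1.17.1), for counting error only. Overlap, G-quadruplex and word-counting code was tested on simulated data. Alternative stretches, overlaps and thresholds are given in the closing section. Genes named singly are those with an ini-seq 2 interval, with others chosen after their values were seen. The members and gene lists were chosen with earlier results of these data known. Promoters and coding sequences were read from hg38 by position.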

Additional observations from a re-analysis of the deposited data

How the results depend on the processing

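Of the values recomputed under an alternative, 88 did not move beyond 1.5 times (counts) or beyond their interval (shares), and 17 did. Counts, shares and efficiencies have no sign, so a change of direction could not be seen in them. The order of the members against all protein-coding genes did turn in the 0.5 to 2 kb list, under 2 of the alternatives below. At an efficiency of at least 0.9, 1 clustered protocadherin gene kept a 3-hour origin, PCDHAC2. With 5 kb on either side of the 5' end, or with the first exons of all protein-coding transcripts, 1 gamma gene (PCDHGC5) gained one, and the median efficiency at members moved from 0.870 to 0.827 under both. In the 0.5 to 2 kb list, 1 kb on either side of the 5' end alone left 16 members with a peak, 4 of them alpha and 2 beta genes, and peaks of at least 500 bp left 24 members, 1 of them a beta gene and 9 gamma genes. In the 2 to 4 kb list, peaks of at least 500 bp left 12 gamma genes. The first exon alone, and an overlap of at least 100 bp, moved no count by more than 1.5 times. With the background limited to genes with a first exon of at least 2 kb, the share of genes moved to 46.9% (3 h), 37.7% (15 min), 72.1% (0.5 to 2 kb) and 79.4% (2 to 4 kb). No paired analysis was possible because no list has a replicate. Each count rests on 1 list without depth, so a gene without an interval may lie below the caller's threshold, and an interval's strength in SNS-seq is unknown.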
